A study of Mus musculus with 2 samples.

Results

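The genes described here encode 10 enzymes that remove superoxide and peroxides and that are known from red cells and their precursors: the peroxiredoxins Prdx1, Prdx2, Prdx3, Prdx5 and Prdx6, catalase (Cat), the glutathione peroxidases Gpx1 and Gpx4, and the superoxide dismutases Sod1 and Sod2. They were taken by name, not by any measured value, as 10 of the 43346 genes in the deposited tables, and each was found once. Their transcripts were measured by total RNA sequencing in G1E cells, an immortalised mouse erythroid progenitor line (strain C57BL/6J, male, postnatal) whose label says Gata1-, that is, without the transcription factor that drives red cell maturation. The labels define a single group with 2 biological replicates, each with 1 ng of input RNA (size over 200 nucleotides) and ERCC spike-in transcripts, so the levels are described and the libraries are set against each other. Cells of no other group were analysed here, and nothing in the labels says how the cultures of the replicates were related.

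Superoxide leaks from respiration and, in red cells, from the slow oxidation of haemoglobin. Superoxide dismutases turn it into hydrogen peroxide, which catalase, glutathione peroxidases and peroxiredoxins then remove. Catalase, a haem enzyme, splits it directly, glutathione peroxidases draw electrons from glutathione, and most peroxiredoxins draw them from thioredoxin. Mature red cells can make no new protein, so they depend on the enzymes that their precursors made.

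Replicate 2 held 40597614 estimated counts, 18.9% of them on nuclear protein-coding genes, and replicate 1 held 31649878, with 26.9%. Levels are given in TPM, a share of all transcripts on a fixed scale that corrects for transcript length. With those shares, the median detected gene had a TPM 1.55-fold higher in replicate 1 than in replicate 2, and the SDs of TPM below include that shift. Detected means 1 TPM or more in each library, which 8345 nuclear protein-coding genes reached, with a median mean level of 7.72 TPM. All 8 erythroid progenitor markers were detected, and Gata1, against the label, was among them at 12.51 TPM in replicate 2 and 21.96 TPM in replicate 1. Whether that Gata1 transcript can be translated is not shown by such a count. Of 7 granulocyte and macrophage markers, Spi1 alone was detected (10.70 and 20.68 TPM in replicates 2 and 1), and Csf1r had no count. Cpa3 and Hdc, 2 of 5 mast cell and basophil markers, were detected, and the 5 summed to 27.74 TPM in replicate 2 and 55.18 TPM in replicate 1, with Mcpt8 and Prss34 at 0. Of 5 megakaryocyte markers 3 were detected, and their sums were 15.75 and 25.74 TPM. The 5 lymphocyte markers had no count, and the 5 fibroblast and endothelial markers summed to 0.01 and 0.05 TPM. In bulk RNA, fewer cells of a type and less RNA per cell cannot be told apart.

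All 10 enzyme genes were detected, and a single one, Gpx1, held more than any other by a wide margin. Together they summed to 524.7 TPM in replicate 2 and 809.57 TPM in replicate 1, which was 0.403% and 0.400% of the TPM of nuclear protein-coding genes (0.401% ± 0.00210, SD, n = 2). The sum as a share thus differed little between the libraries, while the sum in TPM followed the shift of the whole library. The lowest of the 10, Prdx5 and Sod2, had a mean TPM above that of the median detected gene.

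The glutathione peroxidases held about as much transcript as the other 8 genes together. Gpx1 (ENSMUSG00000063856.7, chromosome 9, 108338903 to 108340343, GRCm38, forward strand), the cytosolic and mitochondrial enzyme that reduces hydrogen peroxide with glutathione, had 227.84 TPM in replicate 2 and 343.33 TPM in replicate 1 (286 ± 81.7 TPM, SD, n = 2), from 4765 and 5666 estimated counts. It ranked at place 63 of the 8345 detected nuclear protein-coding genes and took 43.4% and 42.4% of the summed TPM of the 10 genes. Gpx4 (ENSMUSG00000075706.6, chromosome 10, 80047166 to 80056439, forward strand), which reduces lipid peroxides within membranes, had 40.27 TPM in replicate 2 and 60.86 TPM in replicate 1 (50.6 ± 14.6 TPM, SD, n = 2). Gpx1 was the higher of this pair in both libraries, and the ratio of their gene-level TPM was nearly the same in each, 5.66 and 5.64. On coding transcripts alone the ratio was larger in replicate 1. There Gpx1 had 223.28 TPM in replicate 2 and 336.7 TPM in replicate 1, and Gpx4 had 36.87 and 38.84 TPM. On the scaled counts described further on, their ratios of replicate 2 over replicate 1 went in opposite directions, 0.943 for Gpx1 and 1.15 for Gpx4. The deposited effective lengths, for which TPM corrects, also moved in opposite directions. They were 711 and 778 nucleotides for Gpx1 and 732 and 655 for Gpx4 in replicates 2 and 1. Both enzymes are selenoproteins: a TGA codon, a stop codon elsewhere, is read as selenocysteine at the catalytic site. The stretch of coding sequence around that codon is shown for each, because the transcripts described further on differ in whether their annotated coding sequence includes it. The codon stands in capitals with 30 bases on either side, read 5′ to 3′ from the GENCODE M21 transcripts Gpx1-201 and Gpx4-202. It is codon 47 of Gpx1-201 (chr9:108339451-108339453, GRCm38, forward strand) and codon 73 of Gpx4-202 (chr10:80054737-80054739, forward strand).
Gpx1: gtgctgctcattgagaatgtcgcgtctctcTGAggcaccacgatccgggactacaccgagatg
Gpx4: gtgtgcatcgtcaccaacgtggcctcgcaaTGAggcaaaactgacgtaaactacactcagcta

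Among the peroxiredoxins, the mitochondrial Prdx3 was highest, and Prdx2, the one best known from red cells, came after Prdx6 at the gene level. Prdx3 (ENSMUSG00000024997.7, chromosome 19, 60864051 to 60874556, reverse strand), which removes hydrogen peroxide in mitochondria, had 68.59 TPM in replicate 2 and 121.64 TPM in replicate 1 (95.1 ± 37.5 TPM, SD, n = 2). Prdx6 (ENSMUSG00000026701.11, chromosome 1, 161240112 to 161251219, reverse strand), a peroxiredoxin with a single catalytic cysteine that also acts on phospholipids, had 36.78 TPM in replicate 2 and 53.12 TPM in replicate 1. Prdx2 (ENSMUSG00000005161.11, chromosome 8, 84969587 to 84974834, forward strand), the cytosolic peroxiredoxin that is among the most abundant proteins of mature red cells, had 24.83 TPM in replicate 2 and 28.11 TPM in replicate 1 (26.5 ± 2.32 TPM, SD, n = 2). Prdx2 ranked at place 1169 of 8345, behind Prdx3 by 2.76-fold in replicate 2 and 4.33-fold in replicate 1. Prdx1 (ENSMUSG00000028691.8, chromosome 4, 116685544 to 116700822, forward strand), its close cytosolic relative, had 17.26 TPM in replicate 2 and 23.47 TPM in replicate 1. Prdx5 (ENSMUSG00000024953.12, chromosome 19, 6906697 to 6910106, reverse strand), found in mitochondria, peroxisomes and cytosol, had 7.87 TPM in replicate 2 and 11.22 TPM in replicate 1, from 184 and 201 counts. Together the 5 peroxiredoxins took 29.6% and 29.3% of the summed TPM of the 10 genes in replicates 2 and 1.

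Catalase and the dismutases held the remainder. Cat (ENSMUSG00000027187.6, chromosome 2, 103453849 to 103485160, reverse strand), the peroxisomal haem enzyme that splits hydrogen peroxide into water and oxygen, had 43.50 TPM in replicate 2 and 79.81 TPM in replicate 1. Its share of the summed TPM was 8.29% and 9.86%. Sod1 (ENSMUSG00000022982.9, chromosome 16, 90220754 to 90226329, forward strand), the cytosolic copper and zinc dismutase, had 50.36 TPM in replicate 2 and 75.92 TPM in replicate 1 (63.1 ± 18.1 TPM, SD, n = 2). Sod2 (ENSMUSG00000006818.4, chromosome 17, 13006846 to 13040063, forward strand), the manganese dismutase of mitochondria, had 7.40 TPM in replicate 2 and 12.09 TPM in replicate 1. Sod1 was the higher dismutase in both libraries, by 6.81-fold in replicate 2 and 6.28-fold in replicate 1. The deposited tables give the single Sod2 transcript 3824 nucleotides, against 5861 in the later annotation used for names, and the effect of that difference on its TPM was not tested. Prdx3 and Sod2, the 2 enzymes known as mitochondrial alone, took 14.5% of the summed TPM in replicate 2 and 16.5% in replicate 1.

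By mean TPM the order was Gpx1, Prdx3, Sod1, Cat, Gpx4, Prdx6, Prdx2, Prdx1, Sod2 and Prdx5. Neighbours were taken to differ where their deposited credibility intervals of TPM did not overlap in either library, the order was the same in both, and the mean log2 difference exceeded its SD. Gpx1 stood above Prdx3 by 1.60 ± 0.16 on the log2 scale with 1 TPM added (SD, n = 2). Prdx3 above Sod1 (0.56 ± 0.17), Prdx6 above Prdx2 (0.72 ± 0.24) and Prdx1 above Sod2 (1.01 ± 0.15) also met this rule. Sod1 and Cat, Cat and Gpx4, Gpx4 and Prdx6, Prdx2 and Prdx1, and Sod2 and Prdx5 did not, so the order broke at 4 places. Sod1 and Cat changed places between the libraries, as did Sod2 and Prdx5. Without the correction for length the order was Gpx1, Cat, Prdx3, Prdx6, Sod2, Gpx4, Sod1, Prdx2, Prdx1 and Prdx5, with Sod2, the longest transcript, moving up by 4 places. For Gpx1 and Prdx3 in replicate 1 the deposited maximum-likelihood TPM lay above the upper credibility bound, which belongs to the posterior estimate.

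**Figure D1:**
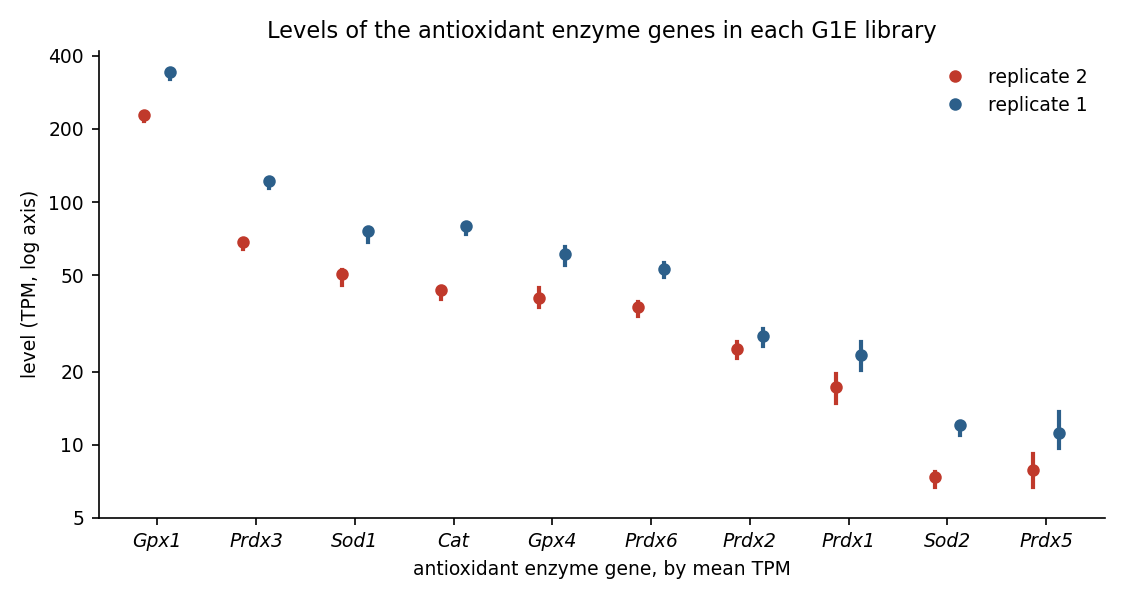
Level of each enzyme gene in TPM (log axis) in replicate 2 (red, left of each pair) and replicate 1 (blue, right), with points for the deposited maximum-likelihood estimate and lines for the deposited credibility interval. Gpx1 is highest in both libraries at 227.84 and 343.33 TPM, Sod2 and Prdx5 are lowest, and every gene has the higher TPM in replicate 1.

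Genes with a level most like that of Gpx1 were ribosomal protein genes. Over log2(TPM + 1) in both libraries, the nearest of the other 8344 detected nuclear protein-coding genes were Rpl26 (230.44 TPM in replicate 2 and 339.52 TPM in replicate 1), Rpl36 (233.76 and 332.02 TPM) and Rpl7 (242.33 and 352.43 TPM), at distances of 0.02 to 0.10. For Prdx2 they were Racgap1 (25.30 and 27.46 TPM), Psrc1 (25.71 and 28.37 TPM) and Ect2 (25.62 and 27.14 TPM), which are known for roles in spindle function or cell division. This likeness rests on the levels in 2 libraries, and so also on the ratio between them, and describes nothing else.

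Between the libraries, the ratios of all 10 enzyme genes stayed under 2-fold in either direction. On estimated counts scaled by TMM, a method that assumes most genes to be unchanged, the ratio of replicate 2 over replicate 1 ran from 0.870 for Prdx3 to 1.37 for Prdx2, with a median log2 ratio of 0.03 for the 10 genes and 0.00 for the 11902 genes tested. The exact binomial test asked whether a pair of libraries differed by more than counting error, and it compares these libraries, not conditions. None of the 10 passed the call of an adjusted p under 0.05 (Benjamini-Hochberg over all genes tested) with at least a 2-fold ratio, against a background of 7.3% of the genes tested, 5.08% higher and 2.22% lower in replicate 2. At an unadjusted p under 0.05 the exact test counted 7 of the 10, against 41.4% of the genes tested. The negative binomial exact test of edgeR called 0 and had 0 at an unadjusted p under 0.05, but its spread (a coefficient of variation of 26.3%) was estimated from the same 2 libraries, so it could not resolve ratios of this size.

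At any fold, 6 of the 10 differed by more than counting error, 3 in each direction. The background for that looser rule was 17.2% of genes higher and 15.2% lower in replicate 2, 32.4% in all, and 38.8% in either direction among the 6498 genes with at least the 385 counts of the lowest of the 10, a count chosen after the values were seen. Prdx2, with 887 counts in replicate 2 and 728 in replicate 1, had a ratio of 1.37 (95% interval 1.24 to 1.51, exact binomial adjusted p = 7.8e-09). Prdx1 had 429 and 399 counts and a ratio of 1.21 (1.05 to 1.38, exact binomial adjusted p = 0.0267). Gpx4 had 867 and 846 counts and a ratio of 1.15 (1.04 to 1.26, exact binomial adjusted p = 0.0173). These 3 were the higher ones in replicate 2, and the lower ones were Prdx3, Cat and Gpx1, 3 of the 4 genes with the most TPM. Prdx3 had 2732 counts in replicate 2 and 3520 in replicate 1 and a ratio of 0.870 (0.827 to 0.915, exact binomial adjusted p = 6.08e-07). Cat had 2911 and 3662 counts and a ratio of 0.891 (0.848 to 0.936, exact binomial adjusted p = 3.35e-05). Gpx1, the most deeply counted, had a ratio of 0.943 (0.907 to 0.980, exact binomial adjusted p = 0.0118). For Prdx6 (1.08, 1.01 to 1.16), Prdx5 (1.03, 0.835 to 1.26), Sod1 (1.01, 0.917 to 1.12) and Sod2 (0.949, 0.863 to 1.04) the adjusted p missed the threshold, and their intervals give the differences the counts allow. Intervals and floors cover counting error only.

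**Figure D2:**
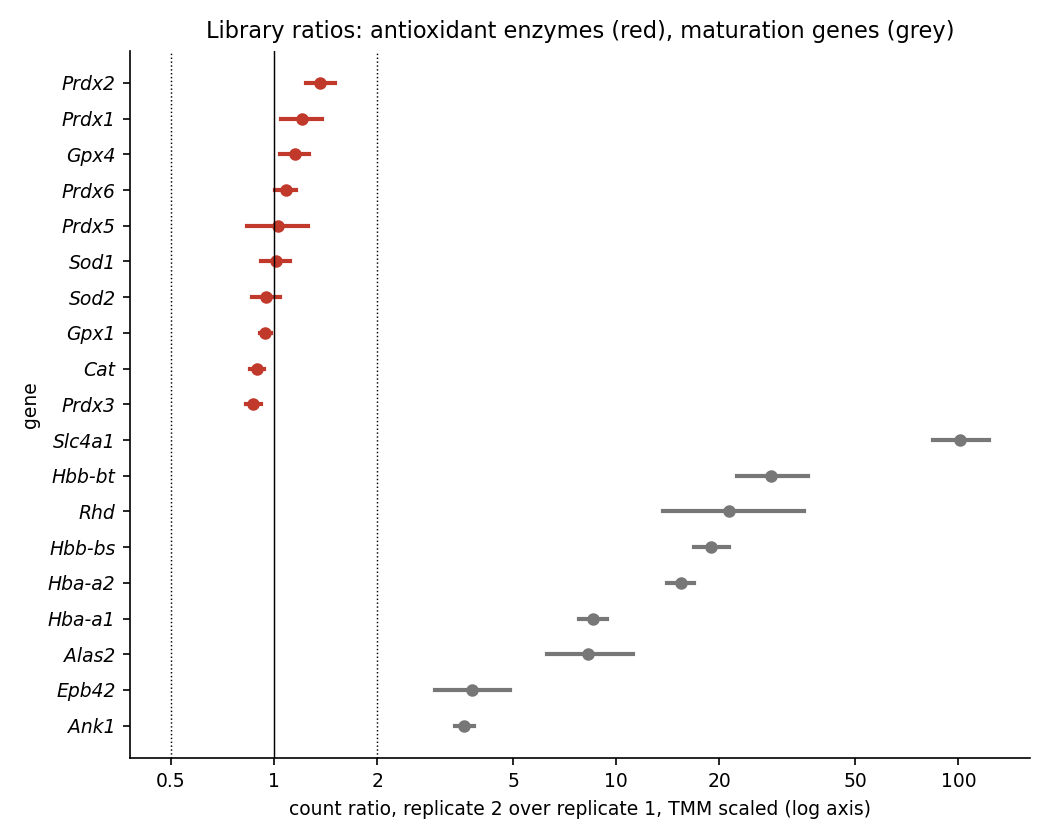
Ratio of scaled counts, replicate 2 over replicate 1 (log axis), with exact 95% intervals for counting error, for the 10 enzyme genes (red, above) and 9 erythroid maturation genes (grey, below), leaving out Aqp1 with 1 count in replicate 1. The solid line marks equal counts and the dotted lines a 2-fold difference. The enzyme genes lie between 0.870 and 1.37, and the maturation genes shown run from 3.60 to 101.

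The same libraries also differed in genes of red cell maturation, a list chosen knowing that these genes differ between the libraries, so its count is a description. In it 10 genes passed the 2-fold call, all higher in replicate 2 (background 5.08%), and these summed to 1549.77 TPM in replicate 2 and 171.03 TPM in replicate 1. Slc4a1, the anion exchanger of the red cell membrane, had 10387 counts in replicate 2 and 115 in replicate 1, and Alas2, the first enzyme of erythroid haem synthesis, had 414 and 56. The part of this difference in the smaller ratios of the enzyme genes was not tested. Directions above depend on the scaling: TMM centres the genes tested near 0, whereas scaling by total counts moves the median of all genes to -0.52 on the log2 scale and by spike-in totals to -4.49, and under either none of the 10 had a ratio above 1.

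The upstream sequences of the 3 genes that were higher in replicate 2 are shown for the short motifs that red cell and antioxidant regulators are known to bind: GATAA for GATA factors, CCNCNCCC for KLF factors and TGACNNNGC for NRF2 with its small MAF partners. Each line is the 250 bases before a RefSeq transcript start (GRCm38.p6), for Gpx4 the one of 4 with most matches to GATAA, in lower case with motif matches of either strand in capitals, overlapping matches being joined. Prdx2 is chr8:84969372-84969621, Prdx1 is chr4:116685349-116685598 and Gpx4 is chr10:80053315-80053564, all on the forward strand.
Prdx2: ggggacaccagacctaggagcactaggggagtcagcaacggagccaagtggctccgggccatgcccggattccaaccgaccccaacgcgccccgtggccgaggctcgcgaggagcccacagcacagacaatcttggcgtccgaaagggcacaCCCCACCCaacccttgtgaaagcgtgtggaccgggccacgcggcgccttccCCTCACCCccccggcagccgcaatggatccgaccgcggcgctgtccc
Prdx1: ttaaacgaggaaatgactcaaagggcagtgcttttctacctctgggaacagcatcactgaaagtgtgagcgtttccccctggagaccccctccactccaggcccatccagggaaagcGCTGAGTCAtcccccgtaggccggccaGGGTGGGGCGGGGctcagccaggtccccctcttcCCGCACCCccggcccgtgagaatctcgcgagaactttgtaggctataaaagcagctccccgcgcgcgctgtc
Gpx4: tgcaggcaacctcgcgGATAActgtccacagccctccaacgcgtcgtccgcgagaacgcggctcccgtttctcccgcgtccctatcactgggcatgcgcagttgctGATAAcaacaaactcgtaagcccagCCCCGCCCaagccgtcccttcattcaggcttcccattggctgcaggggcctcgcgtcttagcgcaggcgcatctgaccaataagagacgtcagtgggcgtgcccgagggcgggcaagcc

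Searched on both strands over windows of 300 bases (250 before to 50 after the start), CCNCNCCC was found in 11 of the 12 windows of 9 enzyme genes, and it occurs in 49.5% of all 32851 windows. TGACNNNGC was found in 2 of the 12, those of Prdx1 and Sod1, against 12.4% of all windows. GATAA was found in 2 of the 12, both of Gpx4, against 25.4% of all windows. Gpx4 has 4 of the 12 windows, of which the one shown has the most GATAA matches, 2, its overlapping neighbour has 1 of these and the others have none. Counted by gene, over all windows of each, the motifs were in 51.9%, 14.0% and 28.4% of 27025 genes, against 9, 2 and 1 of the 9 enzyme genes. A match describes letters, not binding, and no binding data were used. Prdx6 was not searched.

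Which annotated transcript held the reads differed between the enzymes, and for the selenoproteins it decided whether the selenocysteine codon was in the annotated reading frame. Prdx3, Sod1 and Sod2 each have a single transcript in the tables. Gpx1-201, the transcript that reads through the selenocysteine codon, held 42.0% of the gene's TPM in replicate 2 and 55.4% in replicate 1. Gpx1-204, a shorter transcript whose exon includes that codon but whose annotated start codon lies after it, held 55.4% in replicate 2 and 41.4% in replicate 1. These transcripts changed order between the libraries: Gpx1-201 had 95.72 TPM (credibility interval 87.2 to 98.6) against 126.11 TPM (113 to 132) for Gpx1-204 in replicate 2, and 190.26 TPM (173 to 192) against 142.08 TPM (125 to 151) in replicate 1. They share sequence, so the split is an estimate.

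For Gpx4, 91.6% of TPM in replicate 2 and 63.8% in replicate 1 lay on transcripts with the selenocysteine codon in the annotated coding sequence. Gpx4-202 led with 61.7% and 51.7%, and Gpx4-207 held 29.5% and 12.1%. The remainder was mostly Gpx4-205, a non-coding processed transcript with 3.40 TPM (0.314 to 7.74) in replicate 2 and 20.79 TPM (14.8 to 25.5) in replicate 1. Its intervals did not overlap, and on TMM-scaled counts its ratio of replicate 2 over replicate 1 was 0.248. Summed over coding transcripts, Gpx4 had 36.87 TPM in replicate 2 and 38.84 TPM in replicate 1. These values carry the shift in TPM of the whole library, 1.55-fold for the median detected gene. On TMM-scaled counts the ratio of replicate 2 over replicate 1 was 1.21 for Gpx4-202 and 2.47 for Gpx4-207, against 1.15 for the gene.

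Prdx6 was the enzyme with the least of its TPM on coding transcripts, 27.0% in replicate 2 and 34.0% in replicate 1. Prdx6-208, annotated as a target of nonsense-mediated decay (the pathway that degrades transcripts with an early stop codon), held 51.4% and 29.0%. Its level was 18.90 TPM (16.6 to 20.95) in replicate 2 and 15.38 TPM (12.4 to 17.7) in replicate 1. On TMM-scaled counts the ratio of replicate 2 over replicate 1 was 1.89 for Prdx6-208 and 0.992 for Prdx6-202, the leading coding transcript, which had 8.45 and 13.18 TPM. Counted on coding transcripts alone, Prdx6 had 9.93 TPM in replicate 2 and 18.06 TPM in replicate 1 and stood at place 8 of the 10 in the mean, below Prdx2 (22.12 and 27.50 TPM) and Prdx1 (14.54 and 17.20 TPM). The places of the first 5 genes were the same on either count.

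Prdx2 had 89.1% of its TPM on coding transcripts in replicate 2 and 97.8% in replicate 1, led by Prdx2-201 (57.9% and 46.2%) and Prdx2-208 (27.8% and 39.3%). Prdx1 had 84.2% and 73.2%, and its retained-intron transcript Prdx1-206 held 15.8% and 26.8%. Prdx5 lay mainly on Prdx5-203 (71.6% and 61.1%) and Prdx5-201 (24.9% and 37.8%), both coding. Cat-201, the longer transcript of 2613 nucleotides, held 88.3% and 81.7% of catalase, and the shorter coding Cat-202 the remainder.

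**Figure D3:**
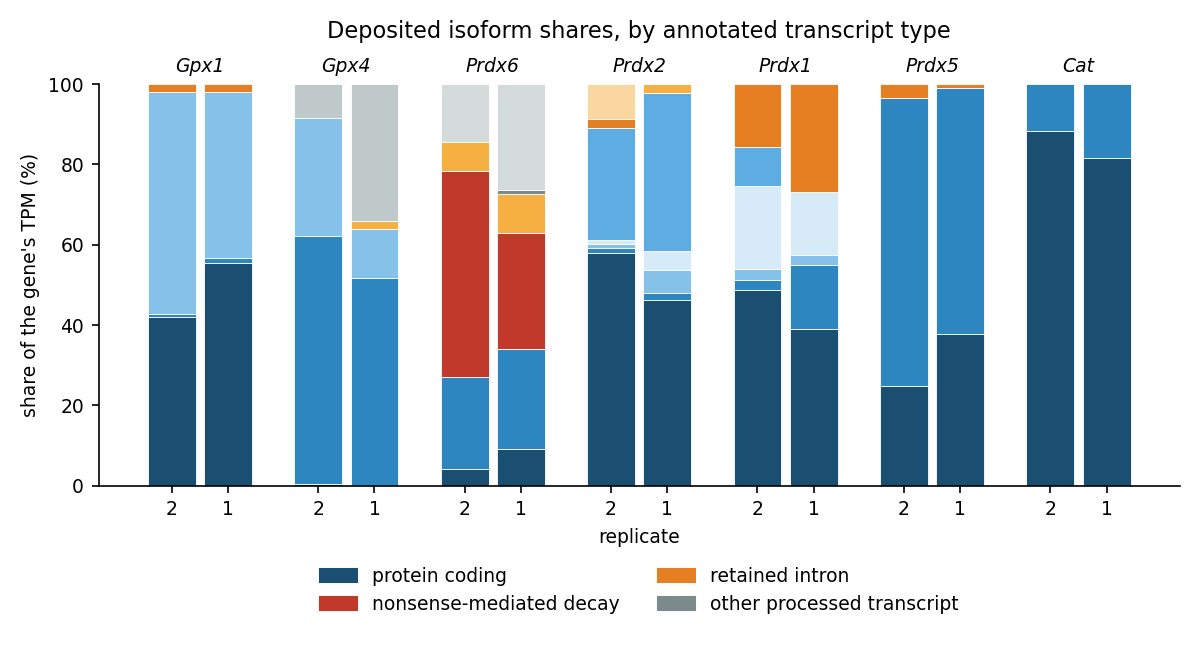
Share of each gene's TPM (percent) on its annotated transcripts in replicate 2 (left bar of each pair) and replicate 1 (right bar), coloured by transcript type, with shades separating transcripts of one type. Prdx6 has the smallest coding share (27.0% and 34.0%), and the non-coding share of Gpx4 is larger in replicate 1.

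Some of these genes share sequence or territory with others. Prdx1 has the processed pseudogenes Gm21399 (98.3% identical over 530 nucleotides) and Gm7204, Sod1 has Gm8566 (97.8% over 465) and Prdx2 has Tdpx-ps1 (96.3% over 597). These copies had at most 7.67 estimated counts in either library, so few reads were assigned to them, and how reads were divided between gene and copy was not tested. The processed pseudogenes Gpx4-ps2, 99.7% identical to Gpx4 over 762 nucleotides, and AC122253.3 (95.1% over 535) were not among the 43346 genes counted. Whether reads from them were assigned to Gpx4 was not tested. On the opposite strand, Prdx2 overlaps Rnaseh2a by 181 bases and Junb by 351, Sod1 overlaps Scaf4 by 650 and Prdx5 overlaps Trmt112 by 409. The sources used here do not say whether counting used strand. Trmt112 had 549 counts in replicate 2 and 833 in replicate 1, more than Prdx5, the enzyme gene with the fewest counts. Scaf4 had 1635 and 2242 counts, more than Sod1 with 774 and 857. Rnaseh2a and Junb each had fewer than Prdx2.

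Of 60 other antioxidant genes in 9 lists, 42 were detected, 48 were tested between the libraries and 0 passed the 2-fold call, against the same background of 7.3%. At an unadjusted p under 0.05 the exact binomial test counted 14 (background 41.4%) and the negative binomial exact test 0. At any fold 8 were higher and 1 was lower in replicate 2, out of 48, against backgrounds of 17.2% and 15.2%, so the count of higher ones was near the background, with a median log2 ratio of 0.07. The higher ones were Txnip, Ftl1, Foxo3, Msra and Msrb1, which are described by list, and Txnrd2 (ratio 1.75), Idh1 (1.42) and Nadk (1.19), named after their values were seen. The median level of all 60 other antioxidant genes, with the undetected ones included, was 5.22 TPM. That of the 10 enzyme genes, all detected, was 47.8 TPM.

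Relatives of the 10 enzymes nearly all had no count. Of the other 9 peroxidase and dismutase genes, Prdx4, the peroxiredoxin of the endoplasmic reticulum, was the single one detected, with 9.40 TPM in replicate 2 and 13.68 TPM in replicate 1. Gpx2, Gpx3, Gpx5, Gpx6, Gpx7, Gpx8, Prdx6b and the extracellular dismutase Sod3 had no count in either library. A count of 0 allowed up to 0.0739 CPM (counts scaled to the library total) in replicate 2 and 0.0948 CPM in replicate 1.

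Genes of the thioredoxin, glutathione and NADPH lists, not all of which feed electrons to the enzymes, were present at varied levels. In the thioredoxin list 5 of 7 were detected, led by Txnip, an inhibitor of thioredoxin (172.25 TPM in replicate 2 and 296.79 TPM in replicate 1), and Txn2, the mitochondrial thioredoxin that serves Prdx3 (30.53 and 53.11 TPM). In the glutathione list 7 of 8 were detected, led by Glrx5, a mitochondrial glutaredoxin of iron-sulphur cluster assembly (40.44 and 75.88 TPM), and Gclm, the modifier subunit of the first enzyme of glutathione synthesis (50.10 and 55.45 TPM). Of 8 genes of NADPH supply 7 were detected, at lower levels: Idh2, the mitochondrial isocitrate dehydrogenase, had 7.86 and 18.33 TPM, and G6pdx, the entry enzyme of the pentose phosphate pathway, 8.71 and 12.84 TPM. Each of these 6 genes had the higher TPM in replicate 1, as the median detected gene did (1.55-fold). On scaled counts their ratios of replicate 2 over replicate 1 were 1.05 for Txnip and G6pdx, 1.00 for Txn2 and 0.992 for Gclm. Those of Idh2 and Glrx5 were 0.848 and 0.818. Of these 6, Txnip and Glrx5 alone passed at any fold (exact binomial adjusted p = 0.00265 and 2.32e-05).

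Genes that supply selenium and copper were all detected. The 6 genes of selenoprotein synthesis were led by Sephs2, which makes the selenium donor (9.61 TPM in replicate 2 and 15.29 TPM in replicate 1), and Sepsecs, which makes selenocysteine on its tRNA (4.11 and 6.37 TPM). The 3 genes of copper supply included the copper importer Slc31a1 (6.37 and 9.68 TPM) and the copper chaperone Atox1 (5.05 and 7.72 TPM). For none of these 9 did the exact binomial test pass at any fold, against 32.4% of the genes tested. Some had few counts, such as Atox1 with 62 in replicate 2 and 70 in replicate 1 (interval of the ratio 0.694 to 1.42). Of 4 methionine sulfoxide reductases, Msrb1 (10.30 and 12.93 TPM) and Msra (1.55 and 1.29 TPM) were detected, both higher in replicate 2 on scaled counts, with ratios of 1.30 and 1.84 (exact binomial adjusted p = 0.0209 and 0.00379), while Msrb2 had no count.

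Among the 9 regulators 8 were detected. Nfe2l2, which encodes the antioxidant activator NRF2, had 13.94 TPM in replicate 2 and 23.62 TPM in replicate 1, and Foxo3, a forkhead factor known to control antioxidant genes in erythroid cells, had 13.24 and 14.00 TPM. Foxo3 was higher in replicate 2 on TMM-scaled counts, with 2535 and 1990 counts, a ratio of 1.43 (1.35 to 1.51) and an exact binomial adjusted p of 4.77e-31. That p covers counting error between the 2 libraries alone. Scaled to the library total, Foxo3 was not higher in replicate 2, with 62.4 CPM against 62.9 CPM in replicate 1. Sesn3 had no count. Of 6 known NRF2 targets 3 were detected, the ferritin subunit genes Ftl1 (431.19 and 603.46 TPM) and Fth1 (340.12 and 527.54 TPM) far above the remainder, while Osgin1 had no count. The median of the 6 was 1.22 TPM. For both ferritin genes the maximum-likelihood TPM lay above the upper credibility bound in each library. On TMM-scaled counts the ratio of replicate 2 over replicate 1 was 1.14 for Ftl1 (exact binomial adjusted p = 9.03e-18) and 0.989 for Fth1. Scaled to the library total, Ftl1 was lower in replicate 2, with 239.8 CPM against 302.9 CPM.

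**Figure D4:**
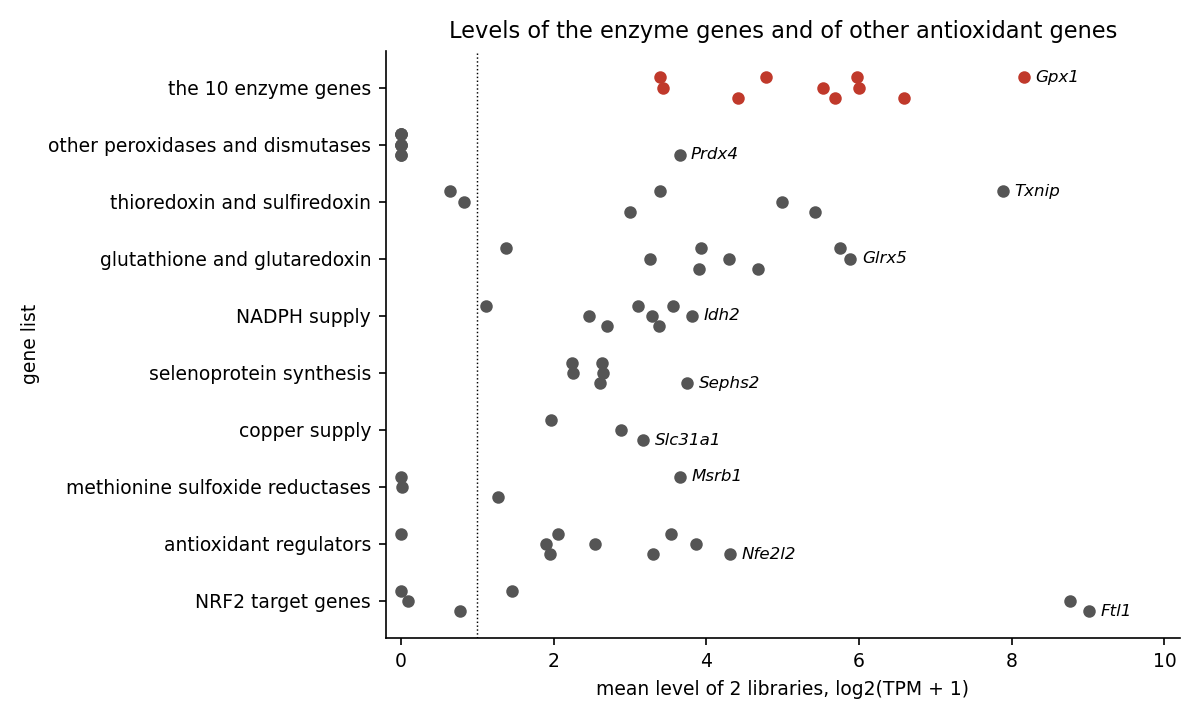
Mean level over 2 libraries, log2(TPM + 1), of the 10 enzyme genes (red, top row) and of 60 other antioxidant genes (grey) by list, with the highest gene of each list named and small vertical offsets for legibility. The dotted line marks a mean of 1 TPM. All 10 enzyme genes lie to its right, while 8 of the 9 other peroxidase and dismutase genes lie at 0.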

How the data were processed

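Per the file headers, the authors deposited a gene table and a transcript table for each library, with estimated counts (expected counts, not normalised), TPM scaled to a fixed sum per library, FPKM, credibility bounds of TPM (the other columns used), and isoform shares as a percent of the gene's TPM. The deposited file records name mm10 and GENCODE M4, with aligner and quantifier not given in the sources used here. Symbols and coordinates were read from GENCODE M21 (GRCm38), matched for 42462 of 43346 genes. Upstream sequences are RefSeq's (GRCm38.p6).

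Counts were rounded. Genes whose counts over both libraries reached 10 entered a two-sided exact binomial test against the ratio of TMM library sizes (edgeR 4.0.16, R 4.3.3), with Benjamini-Hochberg adjustment over 11902 genes and exact 95% Clopper-Pearson intervals. The p-values set each difference against the spread expected from counting alone. A floor is 3 counts. Copies were sought with BLAST 2.17.0 (at least 95% identity over 100 nucleotides). The test was run on simulated data with counting error alone, which cannot show how it behaves under other variation between libraries. Scripts used Python 3.11.15 with NumPy 2.4.6, SciPy 1.17.1, matplotlib 3.10.9 and pandas 2.3.3, and DESeq2 1.42.0.

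Named genes were the 10 enzymes, the 2 highest of each list with any called or at 0, the 3 nearest in level to Gpx1 and Prdx2, and transcripts of at least 5%. Others (markers and maturation genes, overlapping genes and copies) were named where a result turned on them, and 2 genes of the maturation list are not reported here, so no share of that list is given. The members and lists were chosen with earlier results of these data known. Alternatives were other scalings, filters and estimates, a negative binomial test and each library left out.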

Additional observations from a re-analysis of the deposited data

How the results depend on the processing

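No paired analysis was possible because the labels define a single group, and no library could be left out of a ratio of one library over the other. Of the 10 enzyme genes, 0 passed the 2-fold call under TMM, total counts, DESeq2 size factors, either count filter or the negative binomial test, and 10, all lower in replicate 2, under spike-in totals, where the libraries had 10351 and 514 spike-in counts in replicates 2 and 1. Over all genes 869 passed (605 higher and 264 lower in replicate 2), against 1417 (396 and 1021) under total counts, 11644 (36 and 11608) under spike-in totals, 261 (225 and 36) with at least 100 counts and 296 (263 and 33) under the negative binomial test. Of the other antioxidant genes 0 passed, against 2 under total counts and 48 under spike-in totals, all lower in replicate 2. The log2 ratios that turned negative under total counts and spike-in totals were those of Prdx1 (-0.25 and -4.23), Prdx2 (-0.074 and -4.05), Prdx5 (-0.49 and -4.46), Prdx6 (-0.41 and -4.38), Gpx4 (-0.32 and -4.30) and Sod1 (-0.51 and -4.48), since those scalings move the median of all genes to -0.52 and -4.49. The summed level, 0.401% of nuclear protein-coding TPM, was 0.390% with posterior mean TPM, 0.212% with CPM (no length correction) and 0.0667% of all TPM, and from 0.400% to 0.403% with either library alone. The Gpx1 share, 42.9%, was 30.3% with CPM, and from 42.4% to 43.4% with either library alone. Depth limits Prdx5 most, whose interval spans 0.835 to 1.26, and TMM rests on the assumption that most genes did not change.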
